A study of Mus musculus with 12 samples.

Results

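The comparison described here is siBRG1 against siSCR at 48 h, on 2 arrays of each group, which is 4 of the 12 arrays of the series. C2C12 is an established line of mouse myoblasts, muscle precursor cells that fuse into myotubes once serum is withdrawn. Per the labels, siRNA was delivered with Dharmafect3 at a final 100 nM while the cells were in growth medium with 20% FBS. The medium was then changed to differentiation medium with 2% HS and ITS, and RNA was collected 48 h later. The siBRG1 cells received an siRNA against BRG1, the product of Smarca4, and the siSCR cells received a scrambled siRNA, so both had been transfected. The other 8 arrays are siBRG1 and siSCR at 18 h and siBRM, directed against BRM (Smarca2), at both times. Each replicate number at 48 h pairs 1 siBRG1 and 1 siSCR array of the same BeadChip. Nothing in the sources used here says that the 2 replicates were separate cultures, so each p-value measures only the spread between these samples.

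BRG1 and BRM are the alternative ATPases of the SWI/SNF complexes, which use ATP to slide or evict nucleosomes and so open promoters and enhancers. In muscle precursors these complexes are recruited with MyoD and MEF2 proteins to genes of differentiation. Genes on a sarcomere list and on an interferon list are set aside here apart from their counts. The other genes that moved the same way in both replicates are described by their roles.

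On the 4 arrays the share of probes above the negative controls (detection p under 0.05) was 32.9% and 37.7% in siBRG1, against 35.3% and 39.4% in siSCR. Over all 12 arrays it ran from 27.3% to 39.4%, and only 2 arrays per group limit the precision. Of the 11 myogenic line markers with a probe, 9 were detected on all 4 arrays, among them Myod1, Myog, Des and Cdh15, while Myf5 and Pax7 were at background on all 4. The summed normalized intensity of the tested myogenic markers was 72180 and 66050 in siBRG1, against 103582 and 119291 in siSCR. Markers of other cell types were mostly at background: Adipoq, Fabp4, Sp7, Ibsp, Ptprc, Adgre1, Pecam1 and Cdh5 were detected on none of the 4 arrays. The adipocyte markers summed to 8023 and 7944 in siBRG1, against 3964 and 9211 in siSCR, and 4 of 14 were detected in a group. These were Pparg, Cebpb and Lpl, on all 4 arrays, and Plin4, on 3. The osteoblast and chondrocyte markers, 2 of 13 detected (Sox9 and Bglap2, on all 4 arrays), summed to 10802 and 5775 in siBRG1, against 9507 and 4943 in siSCR. The macrophage and leukocyte list (1 of 11 detected, Cd14) and the endothelial list (1 of 10, Eng) summed to no more than 812 on any of the 4 arrays. In RNA from whole cultures, fewer cells of a type and less RNA per cell cannot be told apart.

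Smarca4, the targeted gene, read 6.14 and 7.68 (log2 normalized intensity) in siBRG1, replicates 1 and 2, against 8.60 and 9.10 in siSCR. Both siBRG1 arrays lay below both siSCR arrays, and on the first siBRG1 array the probe was not well above background. Its fitted difference, siBRG1 minus siSCR, was -1.94 ± 0.32 (log2, SE, n = 2 per group), and the adjusted p was 0.171 in limma. In replicate 1 the level was at least 3.98-fold lower, counted from that array's detection limit. Smarca2, the gene of the other ATPase, read 11.05 and 9.89 in siBRG1, against 10.20 and 9.21 in siSCR. It was therefore higher in siBRG1 within each replicate, by 0.85 and 0.68 (fitted 0.76 ± 0.31, limma adjusted p = 0.485), although the group ranges overlapped. Of 24 tested SWI/SNF subunit genes, 8 were higher and 4, Smarca4 among them, lower in both replicates. Among all tested genes 30.0% were higher and 24.1% lower in both, so the list's share of higher genes was near that of all genes. Its median difference was 0.20 (0.04 over all tested genes). When the arrays were scaled to a common median instead of by quantiles, the median of all genes became -0.18 and that of this list -0.05. Besides Smarca4 and Smarca2, the members named for the largest shifts were Bicral (0.91 ± 0.32), Arid2 (0.89 ± 0.37) and Brd9 (0.54 ± 0.25), subunits that distinguish the variant complexes. These were higher, and the other lower members were not named by the rule.

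**Figure D1:**
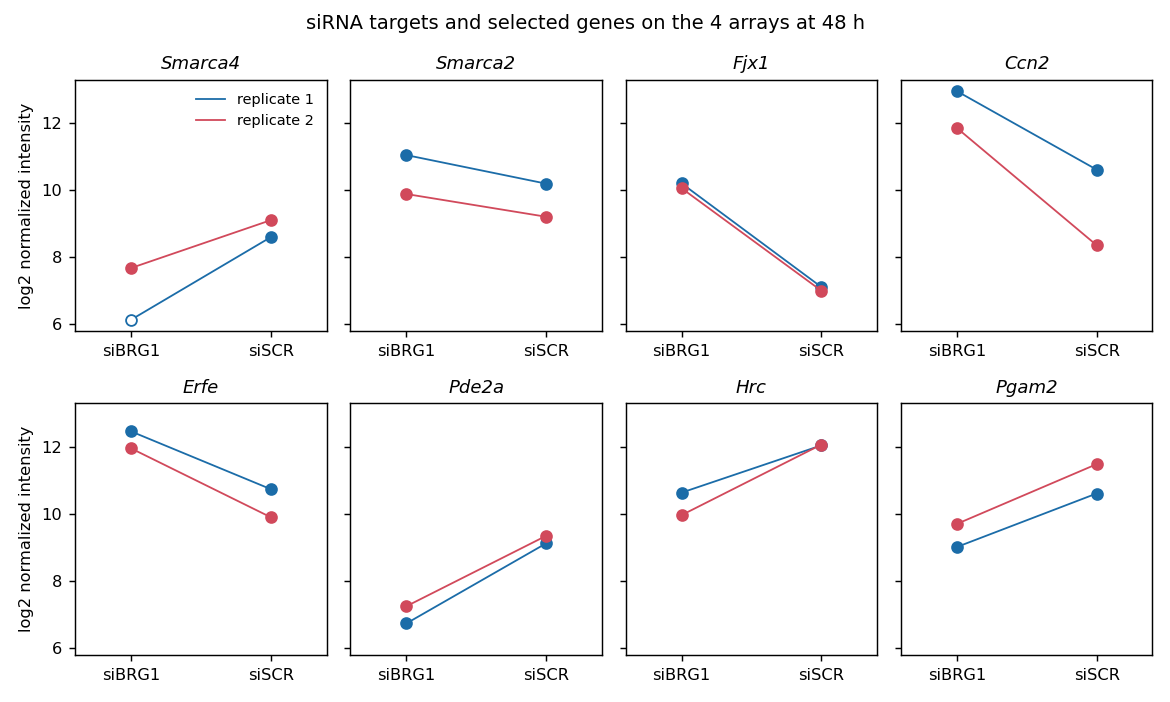
Log2 normalized intensity of Smarca4, Smarca2 and 6 genes with shifts in both replicates, with siBRG1 left of siSCR; a line joins the arrays of 1 replicate, and an open point was not well above background. Both lines slope the same way in every panel, with siBRG1 below siSCR for Smarca4, Pde2a, Hrc and Pgam2.

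The limma fit, with the BeadChip as a block, called 0 of 10847 tested genes (0.0%) at an adjusted p under 0.05, and its lowest adjusted p was 0.148. At an unadjusted p under 0.05 it held 1150 genes (10.6%), of which 587 (5.41%) were higher and 563 (5.19%) lower in siBRG1. By direction alone, 3257 tested genes (30.0%) were higher in both replicates, 2614 (24.1%) were lower in both, and 4976 went opposite ways. The 2 replicate differences had a Pearson r of 0.243 across the 7561 genes detected on all 4 arrays. This is a description across genes, which are not independent and share arrays within a replicate.

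A 2-fold difference in both replicates was found for 94 genes higher (1.11%) and 119 lower (1.4%) in siBRG1, among 8498 genes detected on both arrays of a group. Of the 119 lower genes 12 were on the sarcomere list and 0 on the interferon list, which leaves 107. Of the 94 higher genes 6 were on the interferon list and 0 on the sarcomere list, which leaves 88. The list does not hold every interferon-inducible gene, and Uba7, Ch25h, Gbp2b and Irgm2, described below, are among these 88. The counts moved with the processing, to 44 higher and 265 lower under median scaling and to 24 and 27 without background correction. Under median scaling the median difference of all tested genes was itself -0.18, against 0.04 in the main fit. Over all 10847 tested genes the counts were 97 higher (0.894%) and 119 lower (1.1%). Among the 7561 genes detected on all 4 arrays the counts were 66 higher (0.873%) and 63 lower (0.833%). None of these genes passed the adjusted threshold above, so the directions below are those seen on both pairs of arrays, with the fitted difference and its SE.

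**Figure D2:**
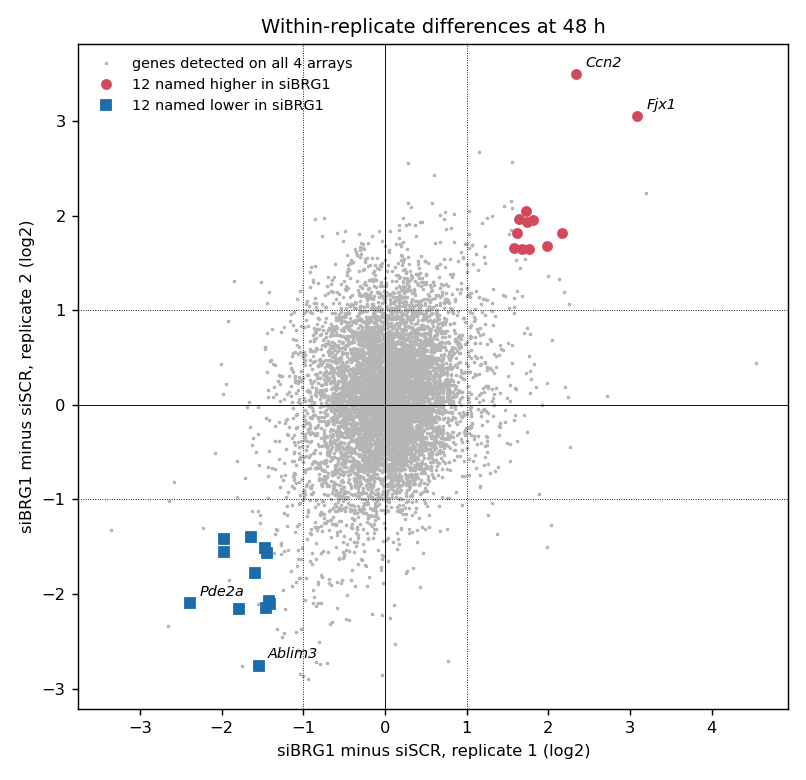
Within-replicate log2 differences, siBRG1 minus siSCR, replicate 1 on the x axis and replicate 2 on the y axis, for 7561 genes detected on all 4 arrays (grey). Red circles are the 12 named genes that were higher, blue squares the 12 that were lower, and the dotted lines mark a 2-fold difference; most grey points lie near 0 on both axes.

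The 12 genes lower in siBRG1 were ranked by the smaller of their 2 differences among genes detected on all 4 arrays. First was Pde2a, a phosphodiesterase of cAMP and cGMP, at 6.73 and 7.24 in siBRG1, against 9.12 and 9.34 in siSCR. The fitted difference was -2.24 ± 0.36 (4.73-fold lower in siBRG1, limma adjusted p = 0.159). Itgb1bp2, which encodes melusin, a muscle protein that binds the tail of integrin beta 1, read 7.48 and 9.40 in siBRG1, against 9.26 and 11.56 in siSCR. Its levels differed more between BeadChips than between siRNAs, but it was lower in siBRG1 within each replicate, by -1.78 and -2.16. Pgam2, the muscle form of the glycolytic enzyme phosphoglycerate mutase, read 9.01 and 9.70 in siBRG1, against 10.61 and 11.48 in siSCR (-1.69 ± 0.53). Dusp27, a muscle member of the dual-specificity phosphatase family, read 7.69 and 8.54 in siBRG1, against 9.67 and 10.10 in siSCR (-1.77 ± 0.30). In Pgam2 and Dusp27 both siBRG1 arrays lay below both siSCR arrays. The genes named here and below were chosen for large differences on these arrays. The share of all tested genes whose groups do not overlap was not counted, so statements on overlap only describe the values.

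Hrc, a histidine-rich protein that binds calcium in the reticulum lumen, read 10.63 and 9.96 in siBRG1, against 12.04 and 12.07 in siSCR (-1.76 ± 0.26, limma adjusted p = 0.159). Jsrp1, a protein of the junctional face of that membrane, read 7.55 and 8.53 in siBRG1, against 8.98 and 10.61 in siSCR (-1.75 ± 0.45). Trim54, a muscle RING-finger ubiquitin ligase that binds microtubules, read 7.87 and 8.74 in siBRG1, against 9.34 and 10.25 in siSCR (-1.49 ± 0.48). None of these 3 genes had overlapping groups. The remaining named lower genes were Ablim3 (actin-binding LIM protein), Ecrg4 (precursor of secreted peptides), Cbfa2t3 (transcriptional corepressor of the ETO family), Stc1 (the secreted glycoprotein stanniocalcin) and Dtx4 (a Deltex ubiquitin ligase). Their fitted differences were -2.15 ± 0.48, -1.81 ± 0.46, -1.50 ± 0.25, -1.69 ± 0.56 and -1.52 ± 0.51 in that order. The 5 tested probes of Ablim3 did not share 1 direction. Dtx4 was the last gene inside the rule, with a smaller difference of -1.40, and 6430548M08Rik, at -1.33, was the first outside.

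Promoter windows of RefSeq (build GRCm38.p6), 250 bases before to 50 after each start, were read for genes that moved together. They are shown for 3 muscle genes that were lower in siBRG1 and for 2 genes that were higher, which were picked because their windows hold matches. Capitals mark a match, on either strand, to the E-box CAGCTG, the TEAD motif GGAATG, the AP-1 motif TGANTCA or the MEF2 motif (CTA and TAG with any 4 bases between them).
Pgam2 (chr11:5803747-5804046, minus strand): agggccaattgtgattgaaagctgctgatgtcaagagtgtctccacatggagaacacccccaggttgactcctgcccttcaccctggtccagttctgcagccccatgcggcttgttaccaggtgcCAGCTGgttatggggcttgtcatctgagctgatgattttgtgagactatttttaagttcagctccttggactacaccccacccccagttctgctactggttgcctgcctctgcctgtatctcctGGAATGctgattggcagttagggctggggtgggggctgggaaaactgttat
Dusp27 (chr1:166127849-166128148, minus strand): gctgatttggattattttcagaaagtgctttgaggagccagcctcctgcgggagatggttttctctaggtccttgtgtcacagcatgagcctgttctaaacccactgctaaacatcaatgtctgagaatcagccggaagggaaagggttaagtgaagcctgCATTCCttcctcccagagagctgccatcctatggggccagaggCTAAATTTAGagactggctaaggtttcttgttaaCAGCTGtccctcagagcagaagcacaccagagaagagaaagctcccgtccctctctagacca
Trim54 (chr5:31116362-31116661, plus strand): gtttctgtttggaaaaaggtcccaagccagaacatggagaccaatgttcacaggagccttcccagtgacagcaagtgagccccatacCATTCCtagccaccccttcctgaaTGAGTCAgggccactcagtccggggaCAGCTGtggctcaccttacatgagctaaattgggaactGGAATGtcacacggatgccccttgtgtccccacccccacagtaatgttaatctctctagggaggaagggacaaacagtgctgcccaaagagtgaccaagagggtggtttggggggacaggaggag
Uba7 (chr9:107975317-107975616, plus strand): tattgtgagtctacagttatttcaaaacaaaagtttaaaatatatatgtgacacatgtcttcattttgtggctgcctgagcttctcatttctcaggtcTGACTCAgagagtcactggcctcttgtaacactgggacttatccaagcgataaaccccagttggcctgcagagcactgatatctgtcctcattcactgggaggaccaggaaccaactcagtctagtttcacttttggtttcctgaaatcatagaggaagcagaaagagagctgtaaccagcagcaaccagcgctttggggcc
Ch25h (chr19:34475099-34475398, minus strand): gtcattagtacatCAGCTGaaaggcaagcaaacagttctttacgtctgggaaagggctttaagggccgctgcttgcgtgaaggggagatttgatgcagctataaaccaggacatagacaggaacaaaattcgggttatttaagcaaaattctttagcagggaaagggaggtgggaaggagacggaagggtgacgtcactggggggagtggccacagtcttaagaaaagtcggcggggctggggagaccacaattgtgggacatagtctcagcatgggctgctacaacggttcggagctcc

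Each of the 3 lower genes shown has 1 E-box CAGCTG and at least 1 TEAD match, and Dusp27 also has a MEF2 match. Trim54 has an AP-1 match besides. Uba7 has only an AP-1 match and Ch25h only an E-box. Of the 12 named lower genes 7 had a window, and of their 12 windows 5 held the E-box, 5 the TEAD motif, 1 the AP-1 motif and 1 the MEF2 motif. Of the 12 named higher genes 8 had a window, and of these 8 windows 1 held the E-box, 1 the TEAD motif, 1 the AP-1 motif and 0 the MEF2 motif. Among genes that were 2-fold lower in both replicates, outside the lists set aside, 84 of 107 had a window. Of their 119 windows 37 (31.1%) held CAGCTG, against 5355 of all 32851 windows (16.3%). Among the genes 2-fold higher, 67 of 88 had a window, and 16 of their 97 windows (16.5%) held it. The TEAD motif was in 19.3% of the lower windows and 14.4% of the higher windows, against 14.7% of all windows. For the AP-1 motif these shares were 5.04% and 11.3%, against 7.81%, and for the MEF2 motif 2.52% and 3.09%, against 3.69%. Genes with several starts give several windows, and a match is a string of letters, not a bound site. The base of all windows includes genes not tested here, and no share over the tested genes was counted. These shares therefore do not separate lower genes from other genes expressed in these cells.

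The 12 genes higher in siBRG1 were ranked in the same way. Fjx1, the mouse four-jointed homologue, which in Drosophila is a Golgi kinase of cadherin-based planar polarity, read 10.20 and 10.06 in siBRG1, against 7.11 and 7.00 in siSCR. Its difference was 3.07 ± 0.41, or 8.41-fold (limma adjusted p = 0.148). Ccn2 (connective tissue growth factor), a matricellular protein and familiar target of YAP and TGF-beta, read 12.95 and 11.85 in siBRG1, against 10.61 and 8.36 in siSCR. That is 2.92 ± 0.35, or 7.55-fold, and the lowest siBRG1 array was above the highest siSCR array for both genes. Erfe (erythroferrone), a secreted hormone that represses hepcidin, read 12.46 and 11.95 in siBRG1, against 10.74 and 9.90 in siSCR (1.89 ± 0.23, limma adjusted p = 0.148). The Erfe promoter window, on chromosome 1, held none of the 4 motifs.

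Uba7, the activating enzyme for ISG15 conjugation, read 9.06 and 8.17 in siBRG1, against 6.89 and 6.35 in siSCR (2.00 ± 0.45). Ch25h, cholesterol 25-hydroxylase, read 9.96 and 9.66 in siBRG1, against 8.15 and 7.70 in siSCR (1.89 ± 0.27). Both genes are known to be interferon-inducible although they were not on the interferon list. Aldh1a3, an enzyme of retinoic acid synthesis, read 8.61 and 8.34 in siBRG1, against 6.87 and 6.40 in siSCR (1.84 ± 0.30). The groups did not overlap for any of the 3 enzymes. Wnt6, a Wnt ligand, was higher by 1.83 ± 0.30, and Fam20a, a pseudokinase of the secretory pathway, by 1.66 ± 0.34. Foxq1 (a forkhead transcription factor), Ranbp3l (a Ran-binding protein) and Krt14 (a type I keratin) were higher by 1.70 ± 0.51, 1.80 ± 0.38 and 1.71 ± 0.29. Mgarp, a mitochondrial protein, closed the 12 with a smaller difference of 1.58, and Bmper, at 1.56, was the first outside.

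A further set was above background on both arrays of 1 group and on neither of the other, so only a bound can be given. It is the bright group's mean over the detection limit of the dim group's arrays, or over the dim probe's own signal where that is higher. In siBRG1, Epha7 (an ephrin receptor) was at least 4.06-fold higher, Sybu (syntabulin, a kinesin adaptor) at least 3.41-fold, and Lum (lumican, a collagen-binding proteoglycan) at least 2.98-fold. In replicate 2 alone the bounds of Sybu and Lum were 2.35-fold and 2.16-fold. Gbp2b and Irgm2, interferon-inducible GTPases that were not on the interferon list, were at least 3.15-fold and 2.68-fold higher. On the other side, Ugt1a10 (a glucuronosyltransferase) was at least 3.66-fold lower, Tm6sf1 at least 3.28-fold lower and Mc4r (melanocortin 4 receptor) at least 2.41-fold lower. Prl2c4 and Prl2c2, at least 3.37-fold and 2.74-fold lower, are near-identical prolactin-family genes whose probes may not tell them apart. Their bounds rest mainly on replicate 1, at 6.61-fold and 5.70-fold, against 1.72-fold and 1.32-fold in replicate 2. For Tm6sf1 the bound was 1.86-fold in replicate 1 and 5.78-fold in replicate 2. Of all genes 2-fold different in both replicates, 24 lower and 15 higher ones had 1 group at background on both arrays.

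The gene lists below are described by the share of members that went 1 way in both replicates, to be read against the 30.0% higher and 24.1% lower among all tested genes. A range after a list's median spans the alternative settings, which include leaving out each of the 4 arrays. Under median scaling a list median is to be read against -0.18, the median of all tested genes in that setting. In the main fit 0 list members passed the adjusted threshold. The genes of excitation-contraction coupling and calcium handling had a median of -1.06 in siBRG1 over 25 tested members (range -1.52 to -0.66, highest without background correction), where all tested genes had 0.04. Of the 25 members 18 were lower and 2 higher in both replicates, and 7 were 2-fold lower in both. The list includes Hrc and Jsrp1 above. Atp2a1, the calcium pump of fast-muscle reticulum, read 12.87 and 13.27 in siBRG1, against 14.11 and 14.82 in siSCR (-1.39 ± 0.25). Stac3, an adaptor of the voltage sensor Cav1.1, read 7.96 and 8.21 in siBRG1, against 9.19 and 10.63 in siSCR (-1.83 ± 0.44). In neither gene did the groups overlap. The list's median was -0.89 in replicate 1 and -1.30 in replicate 2. For comparison, 37 of 44 sarcomere genes were lower in both replicates (median -1.01, range -1.28 to -0.79), and 29 of 35 interferon genes were higher in both (median 0.72, range 0.40 to 0.86). The sarcomere median was -1.36 in replicate 2, below that of the coupling genes, so the order of these lists is not settled.

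Of 28 tested genes of glycolysis, glycogen use and creatine kinase, 17 were lower and 2 higher in both replicates, 9 went opposite ways and 3 were 2-fold lower in both. The median was -0.37, and it was -0.64 under median scaling and -0.23 without the siSCR array of replicate 2. Besides Pgam2, the genes 2-fold lower were Ckm, the muscle creatine kinase, at 9.65 and 10.72 in siBRG1, against 10.97 and 13.10 in siSCR (-1.85 ± 0.52), and Pygm. Pygm, the muscle glycogen phosphorylase, read 7.17 and 7.10 in siBRG1, against 8.21 and 9.94 in siSCR (-1.94 ± 0.54). Aldoa, the aldolase of muscle and many other cells, read 11.71 and 13.70 in siBRG1, against 12.71 and 14.70 in siSCR. The 40 nuclear subunit genes of oxidative phosphorylation, all detected on all 4 arrays, had a median of -0.08 (-0.35 under median scaling), with 15 lower and 5 higher in both replicates and 0 past 2-fold. Its largest named shifts were in muscle isoforms of cytochrome oxidase subunits, Cox8b (-1.08 ± 0.48) and Cox7a1 (-0.76 ± 0.24).

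In the list of myoblast fusion and membrane repair, 17 of 30 tested genes were lower and 2 higher in both replicates (median -0.49, range -0.78 to -0.35, with 3 at 2-fold lower). Dysf (dysferlin, needed for membrane repair) read 9.15 and 8.57 in siBRG1, against 10.34 and 10.11 in siSCR (-1.36 ± 0.27). Cdh15 (M-cadherin) read 13.44 and 13.04 in siBRG1, against 14.35 and 14.40 in siSCR (-1.13 ± 0.26). Both genes had all siBRG1 arrays below all siSCR arrays. Of 14 genes of the acetylcholine receptor and synapse, 10 were lower and 2 higher in both (median -0.66, range -0.95 to -0.43). The receptor subunits Chrnd and Chrna1 differed by -1.36 ± 0.47 and -0.79 ± 0.25. Of 15 genes of the dystrophin-glycoprotein complex, 7 were lower and 1 higher in both (median -0.41, and -0.70 under median scaling and -0.03 without the siSCR array of replicate 2). Sgca (alpha-sarcoglycan) differed by -1.52 ± 0.44.

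Of 14 tested myogenic transcription factor genes, 9 were lower and 0 higher in both replicates, with a median of -0.54 (range -0.69 to -0.28, highest on the authors' values). Myod1, a determination factor, read 10.05 and 11.08 in siBRG1, against 10.35 and 12.71 in siSCR, and its groups overlapped (-0.97 ± 0.43). Myog (myogenin), a differentiation factor, read 12.08 and 13.16 in siBRG1, against 12.73 and 13.90 in siSCR (-0.70 ± 0.29), again with overlap. Mef2c (-0.99 ± 0.32), Tead4 (-1.19 ± 0.28) and Ankrd2, an ankyrin-repeat coregulator of the sarcomere and nucleus (-1.74 ± 0.49), were lower in both replicates. The difference in Myod1 was -0.30 in replicate 1 and -1.64 in replicate 2.

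The Notch pathway list had 9 of 16 tested genes lower and 3 higher in both replicates, with a median of -0.49 (range -0.67 to -0.23, highest with the stricter detection filter) and 3 genes 2-fold lower. The ligand Dll1 read 7.04 and 8.37 in siBRG1, against 9.27 and 9.67 in siSCR (-1.76 ± 0.37), without overlap. The receptors Notch1 and Notch3 differed by -1.70 ± 0.69 and -0.62 ± 0.25, and the ligase Dtx4 is given above. For Notch1 the replicate differences were far apart, at -2.58 and -0.81. From the cytokine list, Fst (follistatin, which binds myostatin and activin) read 9.86 and 9.03 in siBRG1, against 10.93 and 10.57 in siSCR (-1.30 ± 0.38). From the IGF list, Igf2r, the receptor that clears IGF2, differed by -1.24 ± 0.30.

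Both cell-cycle lists had medians above 0, far more so in replicate 2. In the list of G2/M and mitosis, 31 of 54 tested genes were higher and 1 lower in both replicates, with a median of 0.41. Its median was 0.09 in replicate 1 and 0.77 in replicate 2, and it was 0.13 without the siSCR array of replicate 2 and 0.84 without that of replicate 1. In the list of G1/S and DNA replication, 25 of 51 were higher and 6 lower in both, with a median of 0.43 (0.08 in replicate 1 and 0.71 in replicate 2). Without the siSCR array of replicate 2 this median was -0.01, and without that of replicate 1 it was 0.72. Smc2, a condensin subunit, read 8.50 and 7.57 in siBRG1, against 7.42 and 6.08 in siSCR (1.28 ± 0.40), and was the only member of either list past 2-fold in both. Aurka (Aurora A kinase) differed by 0.95 ± 0.27, Hmgb2 by 0.89 ± 0.26, and the replication factors Rfc3 and Rfc5 by 0.99 ± 0.27 and 0.91 ± 0.27.

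Among 13 cyclin D and cell-cycle inhibitor genes, 7 were lower and 1 higher in both replicates (median -0.16, range -0.34 to -0.07), and the members went different ways. Ccnd2 (cyclin D2) read 11.41 and 10.67 in siBRG1, against 9.64 and 10.15 in siSCR (1.14 ± 0.36). Ccnd3 (cyclin D3), the form that accumulates in differentiating muscle cells, read 13.86 and 13.97 in siBRG1, against 14.39 and 14.60 in siSCR (-0.58 ± 0.23). Neither gene had overlapping groups. The inhibitor genes Cdkn1c (p57) and Rb1 (retinoblastoma protein) differed by -1.38 ± 0.56 and -0.95 ± 0.36. Cdkn1a (p21) differed by -0.18 and -1.17 in the 2 replicates (fitted -0.67 ± 0.32). Ccnd1 went opposite ways, at -0.01 and 1.20.

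In the list of immediate early genes 10 of 21 tested were higher and 3 lower in both replicates (median 0.51, range 0.16 under median scaling to 0.71). Egr2, a zinc-finger factor, read 9.87 and 10.18 in siBRG1, against 8.72 and 7.50 in siSCR (1.92 ± 0.39), and Ier3 read 12.83 and 11.97 in siBRG1, against 11.82 and 10.48 in siSCR (1.25 ± 0.24). The groups of both genes stood apart. Of 27 YAP and TGF-beta targets, 13 were higher and 6 lower in both, with a median of 0.25 (-0.01 under median scaling). Ccn1 differed by 0.71 ± 0.26 and Bmp4, a growth factor on the same list, by 1.09 ± 0.29. Extracellular matrix genes showed no common direction, with 18 of 56 higher and 18 lower in both (median -0.07, range -0.27 under median scaling to 0.11 without the siSCR array of replicate 1). The members named by the rule were higher, namely Lox (lysyl oxidase) by 1.16 ± 0.38, Col8a1 by 1.19 ± 0.39, Timp3 by 0.77 ± 0.24 and Timp1 by 0.82 ± 0.26. Of the 18 lower members Adamts1, a secreted metalloprotease picked after its values were seen, differed by -0.92 ± 0.30 and read 8.93 and 7.71 in siBRG1, against 9.35 and 9.13 in siSCR.

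Integrin genes split as well, with 6 of 19 higher and 8 lower in both replicates (median -0.12, range -0.28 to 0.01). Itga11, a collagen-binding integrin chain, read 9.92 and 9.37 in siBRG1, against 8.37 and 7.29 in siSCR (1.82 ± 0.24, limma adjusted p = 0.148). Itga7, the laminin-binding chain of muscle, read 12.18 and 11.43 in siBRG1, against 12.49 and 12.69 in siSCR (-0.78 ± 0.29). Among 29 genes of the SRF program and smooth-muscle cytoskeleton, 10 were higher and 10 lower in both (median 0.11, range -0.13 under median scaling to 0.40 without the siSCR array of replicate 1). Csrp2, a LIM protein of smooth muscle, differed by 1.15 and 1.14 in the 2 replicates (fitted 1.14 ± 0.23).

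The list of unfolded-protein and integrated stress response genes had 13 of 38 higher in both replicates, a share near the 30.0% of all tested genes, and 2 lower. Its median of 0.28 became -0.15 without the siSCR array of replicate 1 and 0.67 without that of replicate 2. Trib3, a pseudokinase induced by ATF4, read 12.93 and 13.27 in siBRG1, against 8.38 and 12.83 in siSCR. Only the first siSCR array was low, and the 2 differences were 4.55 and 0.44. Of 25 p53 targets 9 were higher and 6 lower in both (median 0.04, and -0.27 under median scaling), with Sesn1 (sestrin 1) at 13.00 and 12.33 in siBRG1, against 11.97 and 10.28 in siSCR (1.54 ± 0.32). Of 30 NRF2 and redox genes 12 were higher and 7 lower in both (median 0.00, and -0.19 under median scaling). Nqo1, a quinone reductase, differed by 1.38 ± 0.30, and the glutathione transferases Gstm2 and Gstm1 by -1.15 ± 0.23 and -0.79 ± 0.24, with the 2 Gstm1 probes in disagreement.

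Of 27 chemokine and cytokine genes 10 were higher and 7 lower in both replicates (median 0.07, and -0.07 under median scaling). The chemokine Cxcl1 read 10.27 and 9.50 in siBRG1, against 9.20 and 7.82 in siSCR (1.38 ± 0.26), while the cytokine Il15 read 8.09 and 6.33 in siBRG1, against 8.94 and 7.95 in siSCR (-1.24 ± 0.34). The remaining list medians moved with the setting or with 1 array, and under median scaling that of all tested genes moved as well, to -0.18. The median of 15 hypoxia targets was 0.25 (0.03 under median scaling) and that of 16 Wnt genes -0.09 (0.10 without the siSCR array of replicate 1). For 16 IGF-axis genes it was -0.19 (0.01 without the siSCR array of replicate 1). For 26 genes of cholesterol and fatty acid synthesis it was -0.18, and it was -0.48 under median scaling and -0.02 without that array. For 18 muscle ubiquitin ligase and autophagy genes it was -0.26, and it was -0.55 under median scaling and -0.10 without the siSCR array of replicate 2. In the Wnt list the receptor Fzd7 differed by -1.07 ± 0.26, opposite to Wnt6. The 13 housekeeping genes had a median of 0.17 (-0.07 under median scaling), with 4 higher and 3 lower in both replicates. Gapdh differed by -0.35 and -0.01 and Actb by 0.11 and 0.36.

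**Figure D3:**
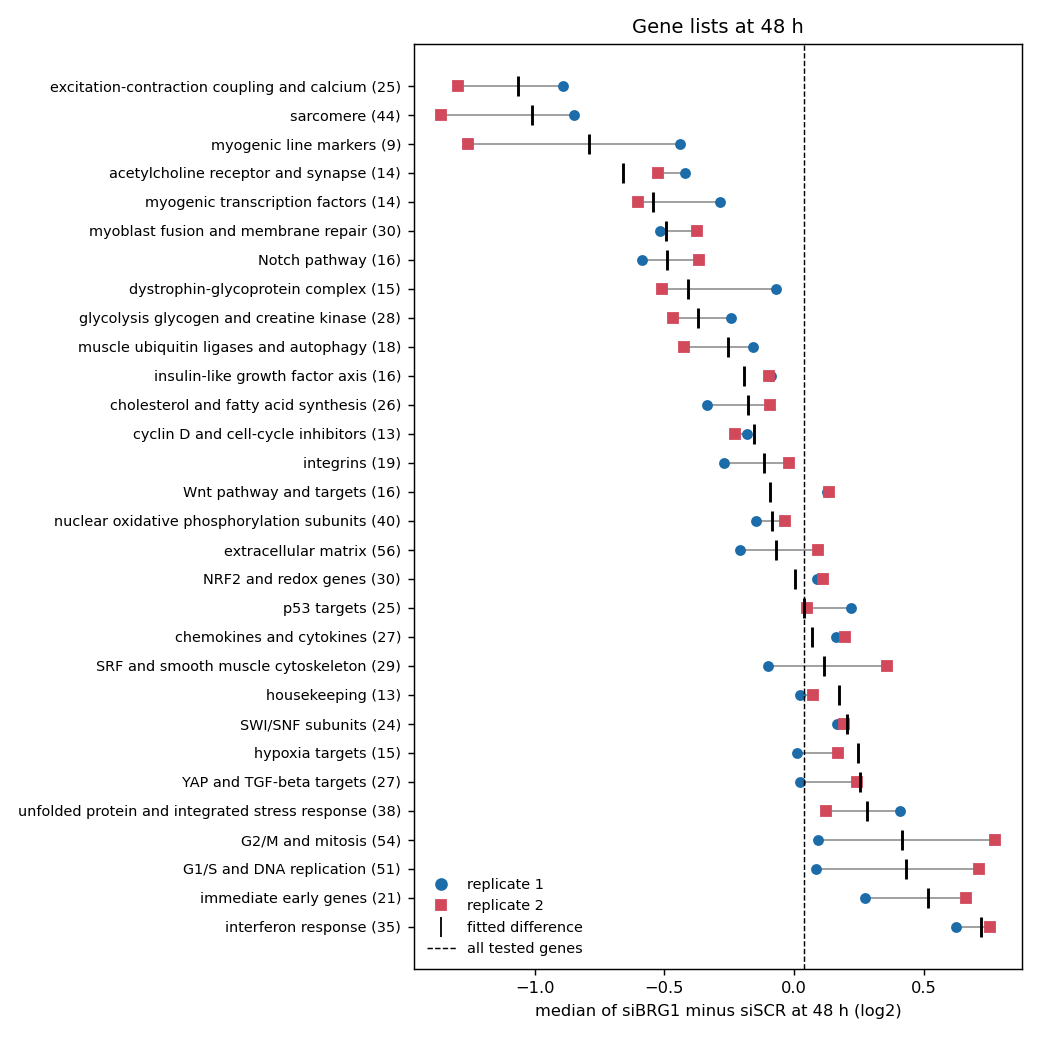
Median log2 difference, siBRG1 minus siSCR at 48 h, of each gene list with at least 9 tested members (their number in brackets), in replicate 1 (circles), in replicate 2 (squares) and as fitted (bars), with the dashed line at the median of all tested genes, 0.04. Excitation-contraction coupling and sarcomere have the lowest fitted medians and the interferon list the highest, and the cell-cycle lists are far apart between replicates.

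At 18 h the same pair of siRNAs was measured on 4 other arrays. Of the 119 genes 2-fold lower in siBRG1 at 48 h, 78 were also lower in siBRG1 in both replicates at 18 h and 14 were higher, where 30.5% of all 8498 genes were lower. Of the 94 higher genes, 64 were higher in both at 18 h and 5 lower, where 31.2% of all were higher. The median difference of the 119 genes was -0.49 at 18 h and -1.54 at 48 h, and that of the 94 was 0.55 and 1.56. Among genes detected on all 4 arrays at 48 h, 46 of 63 lower genes were lower in both at 18 h, where 30.6% of all 7561 were. Under the same filter 47 of 66 higher genes were higher in both, where 32.2% were. Neither count required detection at 18 h, so genes at background at that time can be among them. The 48 h values chose these genes, so only their 18 h values are independent of that choice. No gene had a 48 h effect that differed from its 18 h effect at an adjusted p under 0.05 in limma (0 of 10847, 0.0%, lowest 0.918). At an unadjusted p under 0.05 the limma test held 477 genes (4.4%), a share no larger than that cut gives where no gene differs.

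Ccn2, Erfe and Wnt6, detected on all 4 arrays at 18 h, were already higher at that time. Fjx1 also read higher, but it was detected on 2 of the 4 arrays, so its 18 h differences rest partly on background signals. The 18 h differences in replicates 1 and 2 were 1.08 and 1.90 for Fjx1 and 1.11 and 1.74 for Ccn2. For Erfe they were 0.88 and 1.07, and for Wnt6 1.38 and 1.45. Aldh1a3, detected on 3 of the 4 arrays at 18 h, read lower at that time, by -1.18 and -0.67, and higher at 48 h, by 1.74 and 1.94. Krt14 likewise differed by -0.50 and -0.67 at 18 h and by 1.61 and 1.81 at 48 h. Of the 12 named lower genes 7 were lower in both replicates at 18 h, and only 3 of the 12 were detected on all 4 arrays at that time. Ablim3 and Cbfa2t3 were detected on none of these 4 arrays and Itgb1bp2 on 2, so their 18 h differences say nothing of a change. The genes of excitation-contraction coupling had a median of -0.38 at 18 h and -1.06 at 48 h, and the Notch list -0.55 and -0.49.

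**Figure D4:**
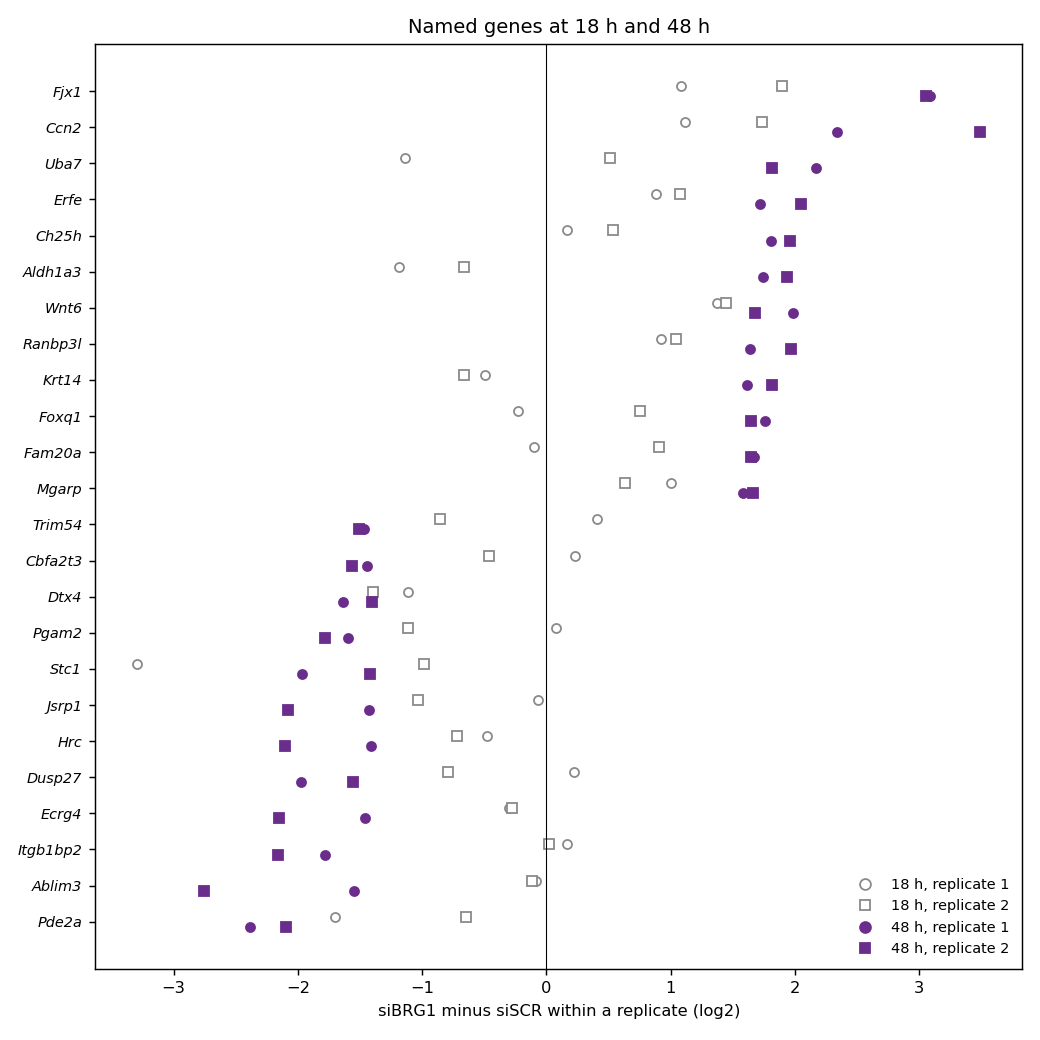
Within-replicate log2 differences, siBRG1 minus siSCR, at 18 h (open grey) and 48 h (filled purple) for the 12 named genes that were higher (top) and the 12 that were lower at 48 h, with circles for replicate 1 and squares for replicate 2. Krt14 and Aldh1a3 lie on opposite sides of 0 at the 2 times, and Fjx1 and Ccn2 lie to the right of 0 at both.

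The time course in siBRM cells, whose arrays are in neither group, was read for the same genes. Of the 119 genes, 107 were higher at 48 h than at 18 h in both siBRM replicates, where 30.3% of all 8498 genes were. Their median difference, 48 h minus 18 h, was 2.12, against -0.02 over all genes. Of the 94 genes higher in siBRG1, 55 were lower at 48 h than at 18 h in both siBRM replicates, where 33.4% of all were, and 15 were higher (median -0.37). Many of the 119 genes passed the detection filter through siSCR at 48 h alone, and many were at background at 18 h. Among genes detected on all 4 siBRG1 and siSCR arrays at 48 h and on both siBRM arrays at 18 h, 29 of 32 lower genes were higher at 48 h in both, where 27.9% of 6953 genes were (median 1.52). Under the same filter 41 of 58 higher genes were lower at 48 h in both, where 36.7% of all were (median -0.52). All 12 named lower genes were detected on both siBRM arrays at 48 h, but only Hrc, Dusp27 and Stc1 on both at 18 h. Hrc differed by 4.08 and 4.78, Dusp27 by 0.96 and 1.36 and Stc1 by 1.15 and 1.56. In replicate 1 the 2 times lay on different BeadChips and cannot be told apart from them. In replicate 2 both times shared 1 BeadChip, and the median of the 119 genes there was 2.00.

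**Figure D5:**
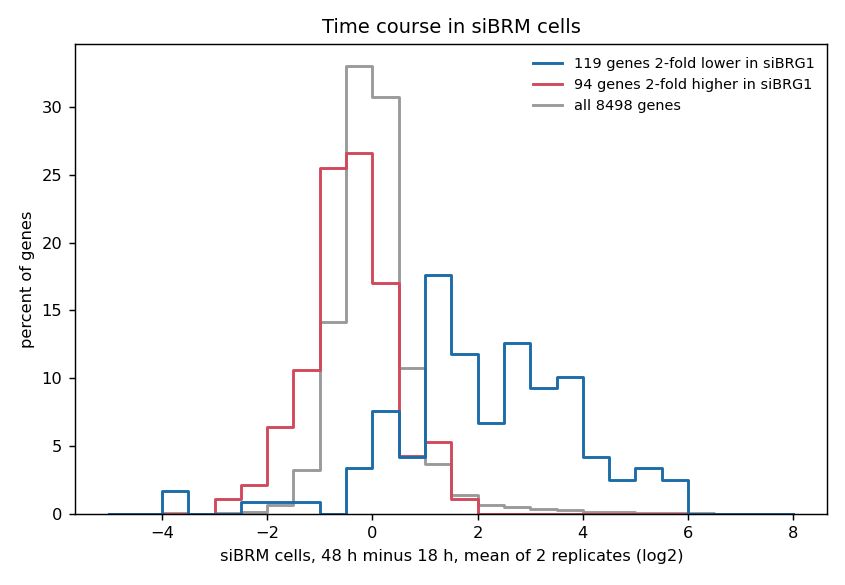
Percent of genes by their log2 difference between 48 h and 18 h in siBRM cells (mean of 2 replicates, bins of 0.5), for the 119 genes 2-fold lower in siBRG1 (blue), the 94 genes 2-fold higher (red) and all 8498 genes detected in a group (grey). The blue line lies mostly right of 0, with a median of 2.12.

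The siBRM and siSCR arrays at 48 h show the same genes with the other ATPase targeted. The siBRM differences use the same siSCR arrays as the siBRG1 differences, so the values are only set side by side. Fjx1 differed by 3.09 and 3.05 with siBRG1 and by 0.52 and 0.04 with siBRM. Ccn2 differed by 2.34 and 3.49 with siBRG1 and by 0.84 and 2.03 with siBRM. For Erfe the differences were 1.72 and 2.05 with siBRG1 and 0.09 and 0.11 with siBRM. Among the lower genes, Hrc differed by -1.41 and -2.10 with siBRG1 and by 0.31 and -0.20 with siBRM. For Dll1 they were -2.23 and -1.30 with siBRG1 and -0.68 and -0.10 with siBRM. Over the 12 named lower genes the fitted siBRM difference ran from -0.23 to 0.77, and over the 12 higher ones from -0.78 to 1.44. Set directly against siBRM at 48 h, siBRG1 had 0 called genes of 10847 (0.0%) in limma, and 878 (8.09%) at an unadjusted p under 0.05.

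How many genes pass the adjusted threshold depended on the background correction and the scaling. With the authors' normalized values, which have no background correction visible in them, the same limma model called 80 of 10847 genes (0.738%), 46 higher (0.424%) and 34 lower (0.313%). Of these 7 were on the sarcomere list and 3 on the interferon list, and 8 of the 12 named higher and 3 of the 12 named lower genes were among them. Gbp2b and Ch25h, interferon-inducible but not on that list, were called as well. On those values Ccn2 rose by 2.52, Fjx1 by 1.95 and Erfe by 1.72 (log2), each at a limma adjusted p of 0.00541. Hrc fell by 1.59 (adjusted p = 0.0195), Atp2a1 by 1.37 (0.0205), Dusp27 by 1.22 (0.0287) and Smarca4 by 0.99 (0.0371). Dysf, Cdh15, Dll1, Fst, Gstm2, Pde2a and Aldoa were also called lower. Itga11, Ch25h, Krt14, Wnt6, Csrp2, Ier3, Cxcl1, Sesn1, Nqo1 and Egr2 were also called higher. Of the calls that the naming rule left out, Slc40a1, the iron exporter ferroportin, was picked after its values were seen. It rose by 1.66 (adjusted p = 0.0363), and in the background-corrected data read 14.57 and 13.72 in siBRG1, against 12.38 and 12.52 in siSCR. Under median scaling of the background-corrected values 274 genes (2.53%) were called, 46 higher (0.424%) and 228 lower (2.1%). In that setting the median difference of all tested genes was -0.18 and 32.6% were higher, against 0.04 and 53.6% in the main fit. All 12 named lower and 11 of the 12 named higher genes were among the 274. The named genes were picked for large differences on these same arrays, so their presence among the calls of either setting is not separate evidence. With the BeadChip as a random block 11 genes (0.101%) were called, Fjx1, Ccn2, Erfe, Ch25h, Gbp2b, Pde2a and Bmper among them.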

How the data were processed

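RNA of 12 C2C12 samples was measured on 3 Illumina mouse BeadChips. The deposited intensities are bead-averaged signals per probe with no normalization visible in them, and the deposited detection p-values set a probe's signal against that array's negative controls. Per the file headers, 2 other columns per array give the number of beads and their standard error, and a second table of the authors holds normalized intensities. The submitters' processing notes name GenomeStudio 2009.1 and no further step.

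Of 45281 probes, 34885 had 1 gene symbol, 18 several and 10378 none. Background was inferred from the detection p-values (normexp, offset 16), and the arrays were quantile normalized and taken to log2 in limma 3.58.1 (R 4.3.3, statmod 1.5.0). The 20415 probes with a detection p under 0.05 on at least 2 arrays were tested, and a gene was read from its brightest tested probe. Of 4219 genes with several tested probes, 54.5% had all probes in 1 direction. The fit held 6 group means and the BeadChip as a fixed block (4 residual degrees of freedom), with two-sided moderated tests and Benjamini-Hochberg adjustment over all tested probes. Log2 differences are therefore means of the 2 within-replicate differences. Same-numbered arrays share a BeadChip at each time, and their deviations from the group means correlated at 0.449 to 0.825 over 15 pairs of groups. The fit was tested on simulated data.

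Named are Smarca4, Smarca2, and the 12 genes each way with the largest smaller difference, detected on all 4 arrays and outside the sarcomere and interferon lists. To these come up to 5 genes each way with only a bound, and up to 4 members of each of 34 lists. The members, lists and comparisons were chosen with earlier results of these data known. Alternatives were other blocks, scalings, background corrections, probe filters and probe rules, the authors' normalized intensities, and leaving out each array. Sequences are from RefSeq's promoter table.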

Additional observations from a re-analysis of the deposited data

Results flagged for a closer look

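In 13 named genes detected on all 8 siBRG1 and siSCR arrays, both replicates went 1 way at 48 h and both the opposite way at 18 h. The share of all tested genes with this pattern was not counted, and very small differences also meet it, as in Gapdh below. In limma none of the 13 differences between the times had an adjusted p under 0.918. Each value below is the 48 h difference minus the 18 h difference (log2, siBRG1 minus siSCR).

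Krt14 (keratin 14) had the greatest, at 2.30 ± 0.40 (SE), with differences of 1.61 and 1.81 at 48 h and -0.50 and -0.67 at 18 h. Vegfa, a growth factor of blood vessels, followed at 1.74 ± 0.42, with 0.55 and 0.77 at 48 h and -1.60 and -0.54 at 18 h. Matrix genes in the same direction were Lox (1.68 ± 0.53), Col8a1 (1.25 ± 0.55) and Timp3 (1.09 ± 0.34). Ccn4, a matricellular protein, stood at 0.78, Sox9 at 0.69 with probes in disagreement, and the SWI/SNF subunit Brd9 at 0.65. The opposite direction, higher at 18 h and lower at 48 h, was seen for the autophagy gene Becn1 (-1.08), the sterol synthesis genes Dhcr7 (-0.95) and Mvd (-0.86), the endoplasmic reticulum gene Creld2 (-0.71) and Gapdh (-0.21). The Gapdh differences were -0.35 and -0.01 at 48 h and 0.04 and 0.03 at 18 h.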

How the results depend on the processing

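The counts of genes called depended on the setting. Under median scaling the median of siBRG1 minus siSCR at 48 h over all tested genes was -0.18. For siBRG1 against siSCR at 48 h, 0 genes were called without a replicate block (218 at an unadjusted p under 0.05), with the replicate number as the block, from the 48 h arrays alone, with offset 50, with no filter on dim probes, with the stricter detection filter and with the mean over a gene's probes. The count was 11 with the BeadChip as a random block, 274 under median scaling, 80 without background correction and 80, the same genes, on the authors' normalized values. For siBRG1 against siBRM it was 28, 76, 93 and 93 under these 4 settings, 2 with offset 50 and 3 with the probe mean. The difference between 48 h and 18 h gave 0 under every setting run. The 2-fold counts were 44 higher and 265 lower under median scaling, 24 and 27 without background correction and on the authors' values, 62 and 78 with offset 50, and 54 and 52 with detection p under 0.01 on all 4 arrays. Smarca4 passed the threshold under median scaling (-1.92), without background correction (-0.99) and on the authors' values (-0.99). Leaving out 1 of the 4 arrays gave -2.34 to -1.55 for it and 0 called genes in each comparison. The 2-fold counts need both replicates and have no such value. Directions turned for Rplp0 (-0.13) and B2m (-0.023) under median scaling, and Pgk1 (0.023) and Actb (-0.46) with the probe mean. Leaving out 1 array gave -0.39 to 1.47 for Cebpb (lowest without siSCR replicate 1), -0.020 to 0.82 for Ccn4 and -0.25 to 1.44 for Ccnd1 (both lowest without siSCR replicate 2). The cause was not tested. Of the values of named genes under alternatives, 1999 kept direction and side of the threshold, and 113 came to pass it. Of list medians, 393 stayed within the spread of the replicates and 116 moved. Signals near background limit the genes given only as bounds.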
